A study of Homo sapiens with 6 samples.

Results

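The OAS and IFIT families are interferon-induced antiviral genes, and 8 of their members were followed here across 6 RNA-seq libraries of MDA-MB-231 cells, a human triple-negative breast cancer line. The members were OAS1, OAS2, OAS3 and OASL, and IFIT1, IFIT2, IFIT3 and IFIT5, taken by gene name as 8 rows of a deposited count table of 61228. They were chosen by measured values: OASL, IFIT1 and IFIT2 were already known to be higher in the knockout libraries of these data, and their relatives were taken with them. The difference between the groups in these 8 genes is therefore a description and carries no test. The control group (n = 3) had been nucleofected, an electrical way of delivering molecules into cells, with the nuclease Cas9 and control guide RNAs. The knockout group (KO, n = 3) had received Cas9 with guides to the related ETS transcription factors ETV1, ETV4 and ETV5 according to its treatment label, while its sample titles name ETV4 alone. Both groups grew in 3D gels of collagen I, and no untreated cells were included. Each KO library also carries the tag c39 in its name, without an explanation in the labels, and whether these libraries derive from 1 clone is not stated. A difference between the groups and a difference of such a clone cannot be told apart. Nothing in the labels says that the replicates of a group were separate cultures, so the p-values given for other genes measure only the spread between these libraries, which may be technical.

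OAS1, OAS2 and OAS3 encode enzymes that are switched on by double-stranded RNA and make short oligoadenylates, which in turn activate the nuclease RNase L. OASL is a relative that carries ubiquitin-like domains, does not make oligoadenylates and takes part in RIG-I signalling. The IFIT proteins are built of tetratricopeptide repeats and bind RNA. IFIT1 recognises RNA whose cap lacks a methylation that marks the cell's own messages, IFIT2 and IFIT3 form complexes with it, and IFIT5 binds RNA with a triphosphate end. Both families are switched on through interferon receptors and JAK kinases, whose signal reaches factors that bind interferon-stimulated response elements in promoters, and several members also respond directly to the factors IRF1 and IRF3.

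Library totals ran from 18042601 to 23232770 counts. The treatment label names ETV1, ETV4 and ETV5 as targets. From control to KO, ETV1 fell from 223 ± 13.5 to 142 ± 11.1 CPM (counts scaled to library size, as mean ± SD, n = 3). ETV4 fell from 93.9 ± 2.11 to 63.7 ± 2.03 CPM, and ETV5 was at 112 ± 4.77 and 113 ± 1.23 CPM. Whether these genes were disrupted was not tested, and RNA levels alone do not show it. The 5 genes fixed as markers of the line, VIM, CD44, EGFR, AXL and KRT18, summed to between 6599 and 9434 CPM in every library. VIM made up most of this sum, at 6661 ± 865 CPM in control cells and 5401 ± 564 CPM in KO. Group means of the others ran from 289 CPM (KRT18, control) to 1023 CPM (AXL, control). The hormone receptor genes ESR1 and PGR had at most 1 count in a library. ERBB3, also fixed as low or absent, was present at 92 to 198 counts and fell from 8.21 ± 0.39 to 5.51 ± 0.80 CPM (edgeR adjusted p = 0.0327). Leukocyte markers summed to between 6.24 and 6.84 CPM in control cells and between 1.87 and 2.37 CPM in KO. LYZ made up most of both, at 6.03 ± 0.25 and 1.55 ± 0.27 CPM, while CD3E was at 0, PTPRC at no more than 11 counts and CD68 at no more than 7. Endothelial markers summed to between 6.12 and 7.38 CPM in control cells and between 3.08 and 4.88 CPM in KO, mostly PECAM1 (edgeR adjusted p = 0.0250 for its fall), with CDH5 at 0 and VWF at no more than 4 counts. Fibroblast markers summed to between 9.24 and 11.5 CPM over the 6 libraries, mostly COL1A1, with groups that overlapped. The part of these marker levels in the results below was not tested. Replicate 3 of both groups stood apart from replicates 1 and 2, and counts of calls are given with and without these libraries. In bulk RNA, fewer cells with a transcript and less of it per cell cannot be told apart.

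The largest difference was in OASL. Its level was 7.23, 6.41 and 6.63 CPM in control replicates 1, 2 and 3, and 27.4, 22.7 and 25.5 CPM in the KO replicates. The lowest KO library was thus above every control library by a wide margin. The log2 fold change of KO over control was 1.90 (SE 0.11), a ratio of 3.72, which ranked 10th among increases over the 14704 genes tested.

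The catalytically active OAS genes stood apart from OASL in size of difference. OAS1, the smallest of the synthetases, measured 3.07, 2.59 and 2.34 CPM in control cells and 2.41, 2.65 and 2.64 CPM in KO, with the groups overlapping (a log2 difference of -0.05 with SE 0.19). OAS1 rested on 45 to 65 counts a library, and its SE was the widest of the 8. OAS2, a membrane-associated synthetase, measured 15.5, 16.8 and 15.3 CPM in control cells and 17.9, 17.9 and 18.7 CPM in KO. All KO values of OAS2 lay above all control values, but the log2 fold change was small (0.20, SE 0.08). OAS3, the largest synthetase and the one most tied to RNase L activation, measured 34.8, 33.3 and 28.3 CPM in control cells and 39.04, 37.0 and 30.9 CPM in KO (a log2 difference of 0.15 with SE 0.11). Replicate 3 was the lowest library for OAS3 in both groups, so that the groups overlapped although each KO library exceeded the control library of the same number.

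In the IFIT family the difference was graded, from IFIT1 down to IFIT5. IFIT1 measured 10.2, 9.80 and 8.16 CPM in control cells and 19.5, 22.6 and 18.6 CPM in KO (a log2 difference of 1.11 with SE 0.12). IFIT2, reported to promote cell death when overproduced, measured 16.0, 18.3 and 15.6 CPM in control cells and 30.6, 32.6 and 30.1 CPM in KO (a log2 difference of 0.91 with SE 0.09). In both genes the groups were separated by more than the range of either group. IFIT3, which stabilises IFIT1, measured 44.9, 46.1 and 46.8 CPM in control cells and 67.6, 65.9 and 62.8 CPM in KO (a log2 difference of 0.51 with SE 0.06), again without overlap. IFIT5 measured 38.8, 38.9 and 43.9 CPM in control cells and 39.1, 41.5 and 45.0 CPM in KO, with overlapping groups (a log2 difference of 0.05 with SE 0.08). IFIT5 was also highest in replicate 3 of each group, the reverse of OAS3.

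**Figure D1:**
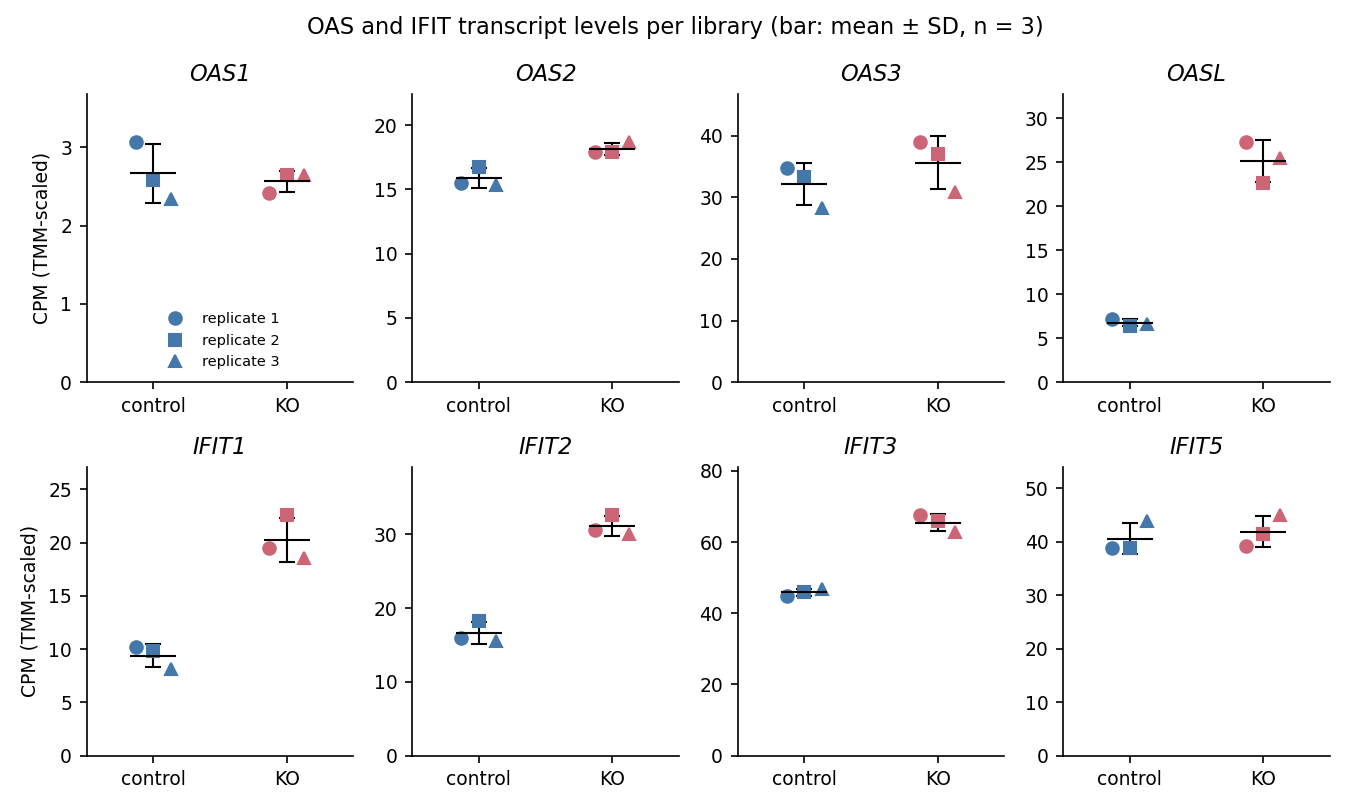
Transcript level of each of the 8 genes in CPM (y axis, from 0, scaled separately in each panel) in the 3 control and 3 KO libraries; symbols mark the replicate number and black bars the mean ± SD. OASL, IFIT1, IFIT2 and IFIT3 show separated groups, and OAS1, OAS3 and IFIT5 overlap.

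Read from the test over all genes, 4 of the 8 members passed an adjusted p of 0.05 in edgeR's quasi-likelihood test, each higher in KO, and none passed lower. The background over 14704 tested genes was 9.7% called in either direction, 3.28% higher and 6.42% lower, but as this contrast chose the members, nothing is read from their share. The 4 were OASL, IFIT1, IFIT2 and IFIT3, that is 1 of 4 OAS and 3 of 4 IFIT genes. Groups did not overlap, with KO higher, for 5 of the 8 members, against 14.9% of all tested genes, and 31.7% in either direction. The median log2 fold change was 0.17 over the OAS genes and 0.71 over the IFIT genes, and 0.35 over all 8, beside 0.004 over all tested genes. All 8 members passed the filter on low counts.

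Taken by replicate number, the KO library exceeded the control library in all 3 pairs for 7 of the 8 members, OAS1 being the exception; this held for 29.4% of all tested genes. For OASL the log2 ratios were 1.92, 1.82 and 1.94 in pairs 1, 2 and 3, and for IFIT2 they were 0.94, 0.83 and 0.95. IFIT1 gave 0.94, 1.20 and 1.19, and IFIT3 gave 0.59, 0.52 and 0.42. These 4 genes thus had a difference of the same sign and of similar size within the replicate-3 pair and outside it. OAS1 had ratios of -0.35, 0.03 and 0.18 and no settled direction.

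**Figure D2:**
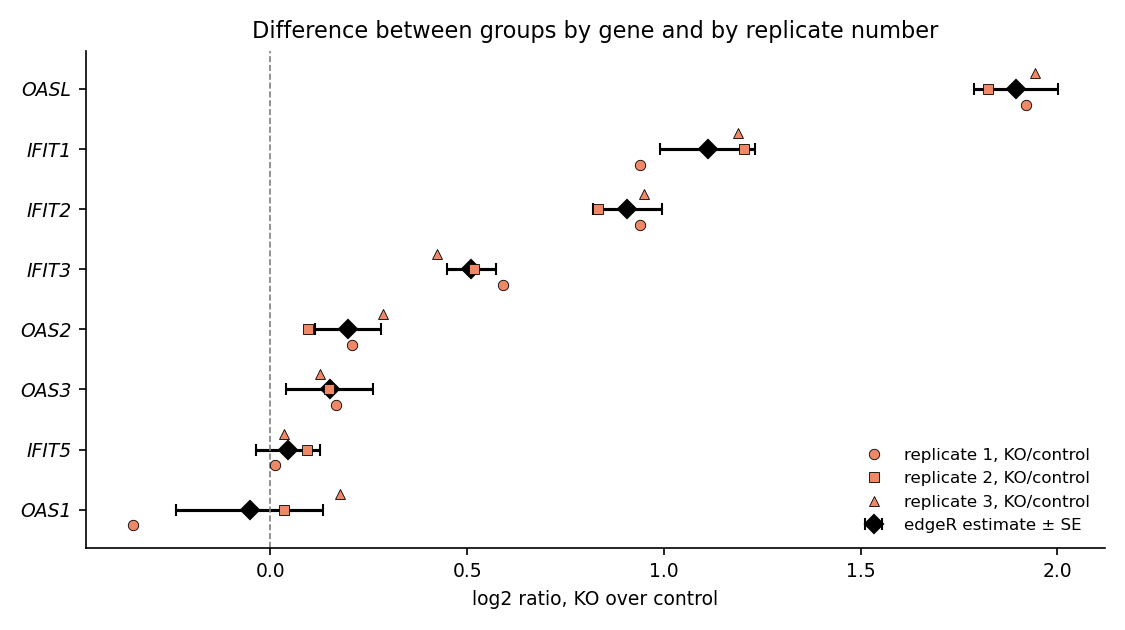
Log2 ratio of KO over control (x axis) for each gene: symbols are the 3 pairs of libraries with the same replicate number, and black diamonds the edgeR estimate with its SE as the bar. The pairs of OASL lie between 1.82 and 1.94, and those of OAS1 fall on both sides of 0.

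The families also shifted in make-up. The 4 OAS genes summed to 60.6, 59.1 and 52.6 CPM in control cells and to 86.7, 80.2 and 77.7 CPM in KO. OASL took 11.9%, 10.8% and 12.6% of the OAS counts in control and 31.6%, 28.3% and 32.8% in KO, while the share of OAS3 was 57.4%, 56.4% and 53.8% in control and 45.0%, 46.1% and 39.7% in KO. The larger OAS sum in KO thus came mostly from OASL. The 4 IFIT genes summed to 110, 113 and 114 CPM in control cells and to 157, 163 and 156 CPM in KO. IFIT3 held a near-constant share of them, between 40.1% and 43.1% over the 6 libraries, whereas IFIT5 went from between 34.4% and 38.3% in control to between 25.0% and 28.7% in KO. Together the 8 genes took 0.0169%, 0.0170% and 0.0169% of all counts in control and 0.0243%, 0.0243% and 0.0236% in KO.

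Levels of different genes were compared per kilobase of annotated exon (CPM per kb), since longer transcripts collect more reads. In control cells IFIT3 was the most abundant at 17.4 ± 0.38 CPM per kb, followed by IFIT5 at 10.1 ± 0.72 and IFIT2 at 4.05 ± 0.36. OAS3, OAS2, IFIT1 and OASL came next at 3.89 ± 0.41, 2.53 ± 0.12, 2.03 ± 0.23 and 1.92 ± 0.12 CPM per kb, and OAS1 was lowest at 0.54 ± 0.08. Neighbours in this order were separated in all 3 libraries except IFIT2 and OAS3, and IFIT1 and OASL, whose ranges overlapped. In KO cells IFIT3 at 24.8 ± 0.92 and IFIT5 at 10.4 ± 0.73 CPM per kb again led. OASL, 7th of 8 in control, was 4th in KO at 7.16 ± 0.67 CPM per kb, a level that overlapped that of IFIT2 at 7.58 ± 0.33. IFIT1 and OAS3 overlapped at 4.38 ± 0.45 and 4.32 ± 0.51, and OAS2 and OAS1 were lowest at 2.90 ± 0.08 and 0.52 ± 0.03 CPM per kb. With the longest coding transcript as the length instead, OAS3 moved above IFIT2 and OASL above IFIT1 in control, and OAS3 above IFIT1 in KO, all of them pairs whose ranges overlapped; the other places in the order were the same.

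**Figure D3:**
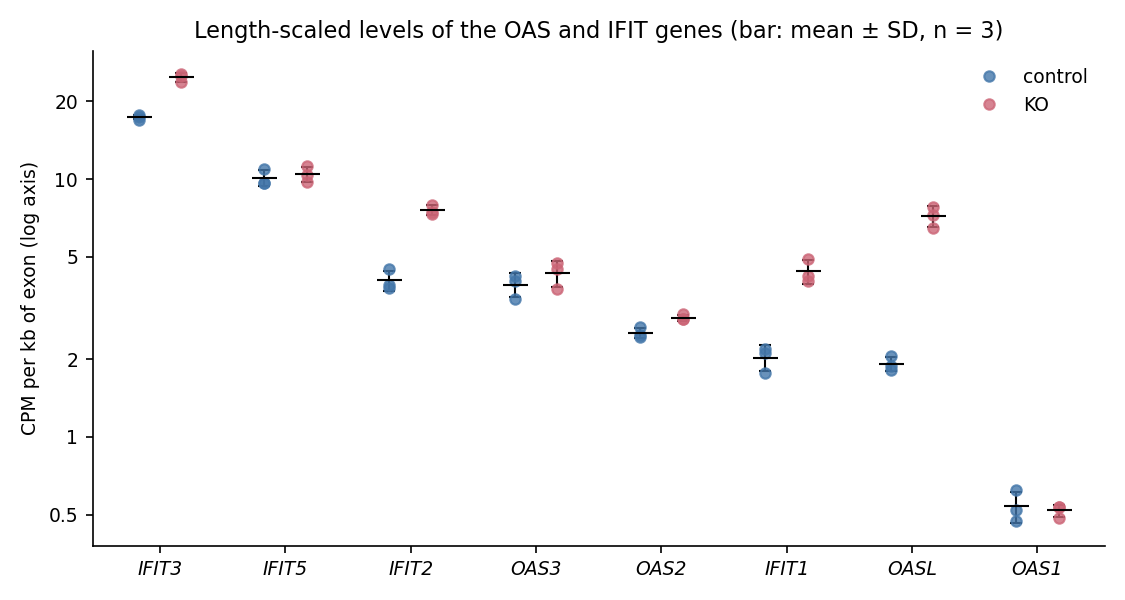
Level per kilobase of annotated exon (y axis, CPM per kb, logarithmic) for the 8 genes ordered by their control mean; points are libraries (blue control, red KO) and bars mean ± SD, n = 3. OASL goes from a control mean of 1.92 to a KO mean of 7.16, past OAS2, IFIT1 and OAS3.

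The genes lie at 3 places on GRCh38, as annotated in GENCODE release 29. OAS1, OAS3 and OAS2 lie side by side on the plus strand of chromosome 12 (112906777 to 113011723), and OASL lies farther along the same chromosome on the minus strand (121019111 to 121039242). The IFIT genes share 137308 bases of chromosome 10 (89283694 to 89421001), all on the plus strand. Reads of the members could mostly be told from those of their relatives: no stretch of 50 bases in a member's longest coding transcript also occurred in another member. IFIT1 shared 38 of 4564 such stretches with IFIT1B or the pseudogene IFIT6P, and IFIT1B itself had at most 2 counts in a library. For IFIT2, 8.40% of the stretches also occurred in transcripts of other genes, among them an overlapping noncoding gene on the same strand, ENSG00000232110, that measured 2.21 ± 0.28 CPM in control cells and 1.45 ± 0.55 CPM in KO. LIPA, the lysosomal acid lipase gene, runs antisense across IFIT1, IFIT2 and IFIT3, and its exons overlap those of IFIT2 by 65 bases.

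Genes next to the members were read from the same test. Of the 18 protein-coding neighbours, 3 on each side of each of the 3 loci, 12 were expressed enough to be tested and 1 passed, a share near the 9.7% of all tested genes. LIPA went from 96.6 ± 0.32 to 83.9 ± 2.00 CPM, the opposite direction to the IFIT genes that it overlaps (a log2 difference of -0.20 with SE 0.05 and an edgeR adjusted p of 0.0456). LIPA passed with the replicate number as a block and without both replicate-3 libraries, and not in any fit with 1 library left out, in DESeq2, with other scaling or with no filter. Its log2 fold change stayed between -0.22 and -0.18 in these 12 alternatives. Beside the IFIT genes, FAS, a death receptor, had a log2 fold change of 0.37 (SE 0.18), KIF20B, a mitotic kinesin, 0.20 (SE 0.07), PANK1, a pantothenate kinase, 0.03 (SE 0.11), and SLC16A12, a monocarboxylate transporter family gene, 0.31 (SE 0.42). Beside OAS1 to OAS2, the phosphatase gene PTPN11 had 0.11 (SE 0.06), the ribosomal protein gene RPL6 0.19 (SE 0.11) and CFAP73, at 0.43 ± 0.08 and 1.08 ± 0.41 CPM, 1.32 (SE 0.38, edgeR adjusted p = 0.0659). Around OASL they included 0.02 (SE 0.16) for SPPL3, -0.41 (SE 0.12) for the ATP receptor gene P2RX4 and -0.09 (SE 0.07) for the kinase gene CAMKK2. With the replicate number as a block, 7 of the 12 passed, 5 higher and 2 lower, where 33.9% of all tested genes passed, 17.2% higher and 16.7% lower. Without both replicate-3 libraries 4 of the 12 passed, beside 25.5% of all tested genes.

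Promoter windows, from 250 bases before to 50 after an annotated start (RefSeq, GRCh38.p14), were matched by symbol for 5 members, with 2 starts for IFIT3. They are shown for IFIT1, which was higher in KO, and for IFIT5 and OAS1, whose groups overlapped, since the members did not move together and these windows can be set side by side. Capitals mark the core of the interferon-stimulated response element, searched on both strands as GAAANNGAAA; TTTC at both ends of a marked stretch means a match on the opposite strand.
IFIT1, chr10:89392373-89392672, plus strand: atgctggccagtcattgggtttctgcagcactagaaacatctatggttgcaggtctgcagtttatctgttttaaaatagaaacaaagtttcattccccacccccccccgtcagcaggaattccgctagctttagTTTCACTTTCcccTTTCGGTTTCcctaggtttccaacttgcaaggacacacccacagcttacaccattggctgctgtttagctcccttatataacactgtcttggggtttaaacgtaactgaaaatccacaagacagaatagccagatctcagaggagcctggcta
IFIT5, chr10:89414318-89414617, plus strand: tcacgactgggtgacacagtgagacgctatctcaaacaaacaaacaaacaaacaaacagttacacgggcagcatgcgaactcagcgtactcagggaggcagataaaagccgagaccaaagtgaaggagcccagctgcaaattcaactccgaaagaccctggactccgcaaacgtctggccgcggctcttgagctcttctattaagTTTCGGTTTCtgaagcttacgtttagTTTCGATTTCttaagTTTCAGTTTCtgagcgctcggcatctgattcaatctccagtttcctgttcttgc
OAS1, chr12:112906712-112907011, plus strand: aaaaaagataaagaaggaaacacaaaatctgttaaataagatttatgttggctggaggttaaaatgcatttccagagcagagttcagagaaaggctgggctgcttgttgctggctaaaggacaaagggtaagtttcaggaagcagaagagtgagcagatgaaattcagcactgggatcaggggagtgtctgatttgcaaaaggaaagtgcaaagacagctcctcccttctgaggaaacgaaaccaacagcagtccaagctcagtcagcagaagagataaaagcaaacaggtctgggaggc

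The element's core was present in 5 of the 6 windows, those of 4 of 5 genes. It was in 3.57% of 35116 windows of the same length over all genes. IFIT1 held 2 matches, TTTCACTTTC and TTTCGGTTTC, starting 116 and 103 bases before the annotated start. The downstream start of IFIT3 also held 2, TTTCAGTTTC and TTTCACTTTC, and its upstream start held TTTCATTTTC and TTTCACTTTC. IFIT5 held 3, all within 45 bases of its start, and OAS3 held 2 on the gene's own strand, GAAACTGAAA and GAAAACGAAA. OAS1 was the member whose window did not hold these letters. The OAS1 window held GAAACGAAA, the same repeat with a shorter gap, which the search did not cover. Among members with a window, the core was found in IFIT1 and IFIT3, higher in KO, and in IFIT5 and OAS3, whose groups overlapped. OAS2, OASL and IFIT2 had no window and were not searched. For the family of the targeted factors, CCGGAAG, a long form of the ETS site, was in 0 of the 6 windows (10.3% of all windows). Shorter forms such as GGAA, which is also part of AGGAAG, were not searched on their own. The 0 therefore does not mean that the windows lack ETS-type letters. The letters AGGAAG, of the PEA3 site, were in 3, those of OAS1, OAS3 and the upstream start of IFIT3 (33.6% of all windows). A match of letters is a description and not a binding site.

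**Figure D4:**
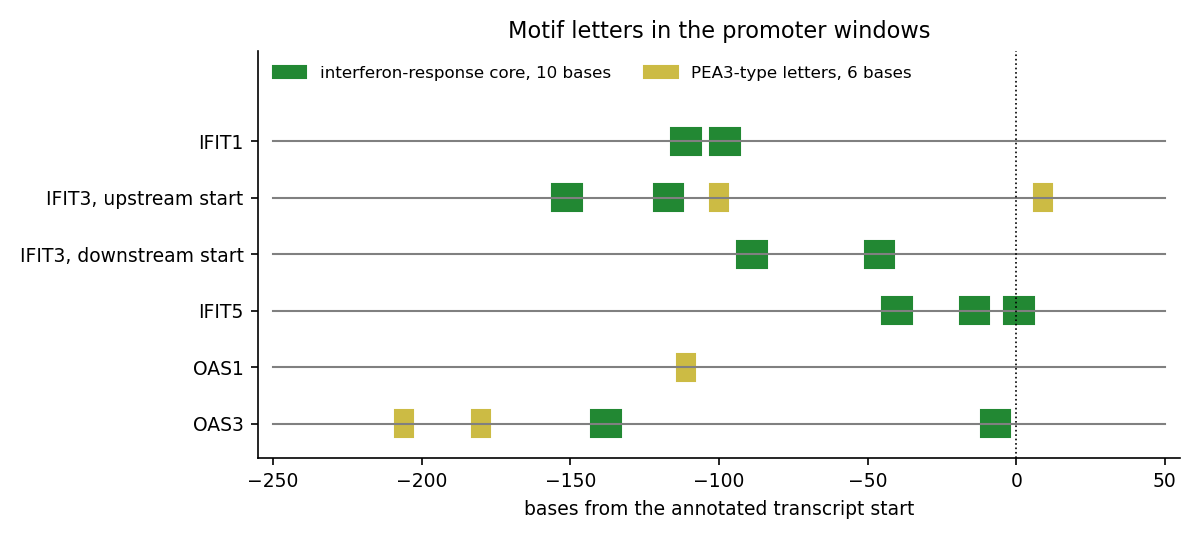
Position of the motif matches in the 6 promoter windows (x axis, bases from the annotated transcript start, dotted line): green boxes are the 10-base response element core and yellow boxes the 6-base PEA3-type letters, drawn to scale. The core, searched with a fixed gap, is seen in every window but that of OAS1.

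The rest of the pathway was followed in lists written from general knowledge, and read from the test over all genes. Of 13 interferon genes, among them IFNB1, IFNA1, IFNL1 and IFNG, none had a single count in any of the 6 libraries. The same held for 32466 of the 61228 rows of the count table. Whether the assignment of reads to genes plays a part was not tested. A count of 0 allows a level of up to 0.128 to 0.165 CPM, which is 3 counts in a library, counting error only. Of 8 IRF and kinase genes none passed edgeR's test, 1 had an unadjusted p under 0.05, and DESeq2 called 1 higher. That gene, named here after its values were seen, was IRF1, at 31.1 ± 4.83 and 40.3 ± 2.09 CPM (a log2 difference of 0.37 with SE 0.11 and an edgeR adjusted p of 0.0687). IRF1 passed with the replicate block and without both replicate-3 libraries. IRF3 and the kinase TBK1, named for the highest means over both groups (TBK1 and IRF1 being close), differed by 0.11 (SE 0.09) and 0.12 (SE 0.06) on the log2 scale.

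Of 13 tested sensors of foreign nucleic acid and their adaptors, IFIH1 rose, STING1 fell and 11 did not pass (median log2 fold change 0.02), beside 3.28% higher and 6.42% lower of all tested genes. With the replicate block 5 were higher and 2 lower (17.2% and 16.7% of all tested genes), and without both replicate-3 libraries 4 were higher and 1 lower (11.7% and 13.7%). IFIH1, which encodes the double-stranded RNA sensor MDA5, went from 4.31 ± 0.58 to 6.93 ± 1.19 CPM (a log2 difference of 0.69 with SE 0.17 and an edgeR adjusted p of 0.0378). STING1, the adaptor of cytosolic DNA sensing, went from 32.2 ± 0.71 to 24.5 ± 1.12 CPM (a log2 difference of -0.39 with SE 0.07 and an edgeR adjusted p of 0.0102). IFIH1 did not pass without any one of control replicates 1, 2 and 3 or KO replicates 1 and 2 (edgeR adjusted p of up to 0.140), and STING1 did not pass without control replicate 1 or KO replicate 2 (up to 0.0582). Of 7 negative regulators, SOCS3, an inhibitor of JAK signalling, fell from 53.3 ± 1.19 to 40.3 ± 3.20 CPM (a log2 difference of -0.40 with SE 0.07 and an edgeR adjusted p of 0.0114), and 6 did not pass. With so few genes, 1 lower is not set apart from the 6.42% of all tested genes. SOCS3 did not pass without KO replicate 1 or 2 (edgeR adjusted p of up to 0.0571), and with the block 2 negative regulators were higher and 1 lower. Without both replicate-3 libraries 1 was higher and 1 lower.

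Partners through which these proteins act were read in the same way. Of 5 genes around oligoadenylates and RNase L none passed edgeR's test or DESeq2, with 1 at an unadjusted p under 0.05 in each, and 1 was higher with the replicate block, without KO replicate 3 and without both replicate-3 libraries. The most abundant of them, ABCE1, a ribosome recycling factor first described as an RNase L inhibitor, and CNP, a phosphodiesterase, differed by 0.17 (SE 0.07) and 0.01 (SE 0.08) on the log2 scale. Of 4 tested genes of mRNA cap methylation none passed edgeR's test or DESeq2, with 1 and 0 at an unadjusted p under 0.05, and 2 were lower with the block and without both replicate-3 libraries. Of all tested genes, 33.9% passed with the block and 25.5% without both replicate-3 libraries, and 1741 of 15026 passed without KO replicate 3. Nothing more is read from so few genes. CMTR1, which adds the methyl group that hides a cap from IFIT1, and RNMT, the guanine methyltransferase, differed by -0.12 (SE 0.06) and -0.17 (SE 0.07) on the log2 scale.

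Of 48 other interferon-stimulated genes 14 rose, 1 fell and 33 did not pass, around a median of 0.07 on the log2 scale. The share that rose was 29.2%, beside the 3.28% of all tested genes; this increase was known before the list was written and is not independent evidence. ISG15, a ubiquitin-like modifier, rose from 17.7 ± 2.97 to 37.2 ± 4.19 CPM (a log2 difference of 1.07 with SE 0.13 and an edgeR adjusted p of 0.00168), a difference close in size to that of IFIT1. GBP1, an interferon-induced GTPase, rose from 33.4 ± 3.83 to 50.3 ± 1.29 CPM (a log2 difference of 0.59 with SE 0.09 and an edgeR adjusted p of 0.00417), and IFI44 had a log2 fold change of 0.86 (SE 0.07). ISG20, an RNA exonuclease, was the gene that fell (2.01-fold lower, edgeR adjusted p = 0.0127), and leaving out control replicate 1 or KO replicate 2 ended its call. Over all pathway lists, with each gene counted once, 15 of 95 tested genes rose and 3 fell. In place of these 18 calls, leaving out a library gave 9 for control replicate 1 and for control replicate 2, 10 for KO replicate 1 and 5 for KO replicate 2, and the replicate block gave 36, of which 25 were higher and 11 lower. Without both replicate-3 libraries 23 were higher and 10 lower, and of the 48 interferon-stimulated genes 16 were higher and 6 lower, as they were with the block. Of all tested genes, 11.7% were higher and 13.7% lower without both replicate-3 libraries, and 17.2% and 16.7% with the block.

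**Figure D5:**
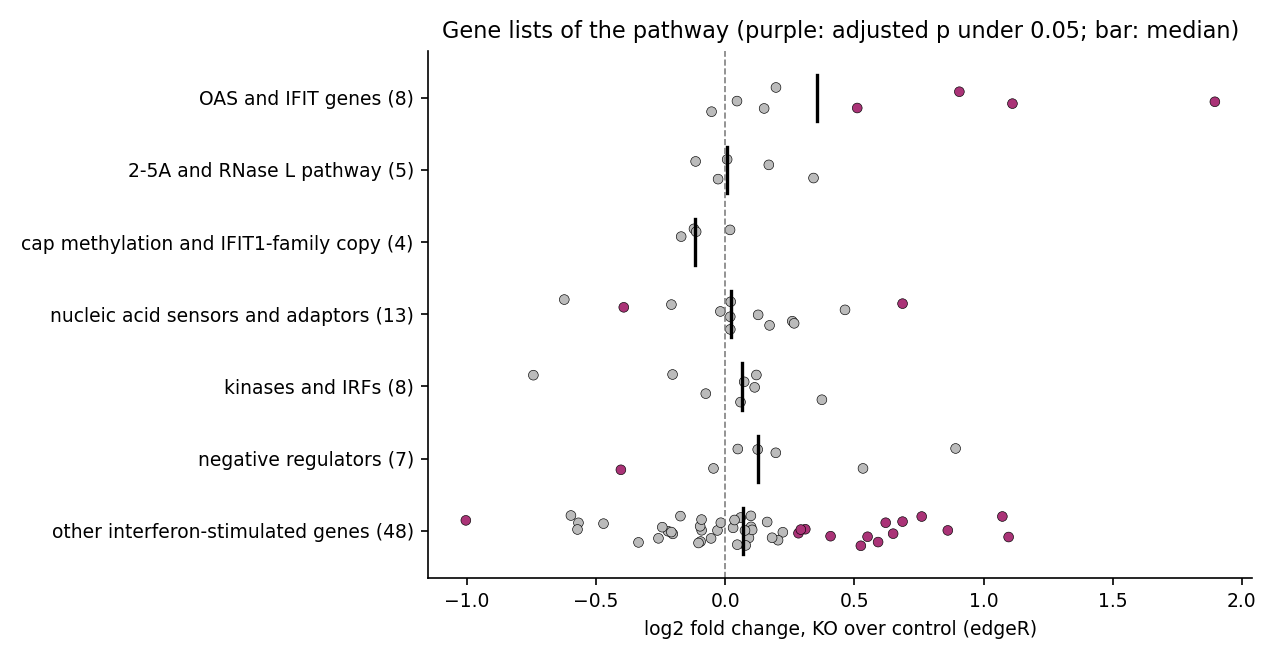
Log2 fold change of KO over control (x axis) for the OAS and IFIT genes and for the tested genes of 6 pathway lists (number in parentheses); purple points passed an edgeR adjusted p of 0.05 and black bars are medians. In the list of 48 other interferon-stimulated genes 14 purple points lie to the right of 0 and 1 to the left, around a median of 0.07.

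The genes whose profile over the 6 libraries lay nearest to those of OASL and IFIT1 were sought among 10801 other genes with a mean of at least 5 CPM. Nearness was the root mean square difference between log2 CPM values centred on each gene's own mean, so it reflects the group difference first. Nearest to OASL were CYP1B1, a cytochrome P450 (0.14), CRISPLD2, a secreted glycoprotein gene (0.27), and an unnamed gene, ENSG00000250657 (0.27). The other OAS genes were farther off, at between 0.85 and 0.97 from OASL. Nearest to IFIT1 were ISG15 (0.08), the linker histone gene H1-2 (0.11) and THBS1, which encodes thrombospondin-1 (0.12); its relative IFIT2 was at 0.14.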

How the data were processed

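The deposited values are raw counts of reads per gene, made by the authors from poly(A)-selected stranded libraries. The submitters' processing notes list the build hg38 and the tools STAR 2.7.9a, featureCounts, FastQC 0.11.9 and R 4.1.1. Annotation, strand setting and handling of multi-mapped reads were not given in the sources used here, so reads from overlapping and antisense genes cannot be told apart with certainty. Columns were matched to samples by library name.

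Genes were kept with edgeR's filterByExpr (14704 of 61228), scaled with TMM factors and compared with edgeR 4.0.16 (robust glmQLFit and glmQLFTest, group as the only term; R 4.3.3), with Benjamini-Hochberg adjustment over all tested genes and a threshold of 0.05. CPM and fold changes were computed here, with Python 3.11.15 for annotation and figures. Alternatives were DESeq2 1.42.0, other scaling, no filter (at least 1 count), leaving out each library, the replicate block and, chosen after seeing the data, leaving out both replicate-3 libraries. The members and lists were chosen with earlier results of these data known.

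Named genes were the members, the targeted genes, up to 3 genes per direction and list by adjusted p (otherwise the 2 most abundant), tested neighbours, and the 3 genes nearest in profile to OASL and to IFIT1. A few results that this rule would name, with 1 gene list, are not reported here. The labels give both groups replicate numbers 1, 2 and 3. Deviations from the group mean over 10032 genes correlated at 0.55, 0.45 and 0.83 between same-numbered libraries (across genes, which are not independent), all above 0.1. The numbers were therefore treated as pairs in the ratios by replicate number and in the replicate block. The main test did not use them, so its p-values ignore any pairing. This pairing comes from the data, not the design. Replicates 1 and 2 were not told apart: control 1 with KO 2 gave 0.59 and control 2 with KO 1 gave 0.58, against -0.73 to -0.62 between replicate 3 and the others, so the block chiefly separates replicate 3. Libraries of a group differed by more than sampling noise (chi-square per degree of freedom of at least 4.19). On simulated data with 14495 genes, the KO against control test found 4% of the genes given a 1.25-fold change, 68% of those given 1.5-fold, 72% for 2-fold and 98% for 4-fold, and called 10 of 14296 unchanged genes. The simulated libraries had no shared difference between replicate 3 and the others, unlike the real ones, so these rates may not hold for the real libraries.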

Additional observations from a re-analysis of the deposited data

How the results depend on the processing

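The same 4 members (OASL, IFIT1, IFIT2 and IFIT3) passed, higher in KO, in all 12 alternatives, with log2 fold changes of 1.84 to 1.97, 1.02 to 1.19, 0.86 to 0.98 and 0.49 to 0.56, and OAS1, OAS2, OAS3 and IFIT5 passed in none. OAS1 had a positive sign in 2 of the 12. The members were chosen with results of these same libraries known, so the repeated calls of the 4 are not independent evidence. With the replicate block the 4 calls among the members did not change, while 4983 genes passed in place of 1427, 36 pathway genes in place of 18 and 7 neighbouring genes in place of 1. With 1 library left out, 572 to 1741 genes, 5 to 20 pathway genes and 0 neighbouring genes passed. Without both replicate-3 libraries the numbers were 3754, 33 and 4. Of the neighbouring genes edgeR with RLE factors and edgeR with library totals called 0 (5 at an unadjusted p under 0.05 in each), DESeq2 called 0 (6 unadjusted) and edgeR with no filter called 2. The causes were not tested. At this depth OAS1 is the least precise of the 8 genes.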

Other observations

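CH25H lies beside the IFIT locus and encodes cholesterol 25-hydroxylase, an interferon-inducible enzyme whose product hinders virus entry. It was too low for the filter and is named here after its values were seen. CH25H had 0, 0 and 2 counts in control replicates 1, 2 and 3 and 6, 8 and 8 counts in the KO replicates, and the groups did not overlap. In the edgeR test with no filter on low counts its adjusted p was 0.0128. As these same counts led to the choice of CH25H, that p-value is not independent evidence. RSAD2 and CMPK2, interferon-stimulated genes that were also too low for the filter, had at most 3 and 1 counts in a library.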
